A study of Mus musculus with 2 samples.

Results

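Klf2, S1pr1, Ccr7, Il7r, Tcf7, Lef1, Satb1 and Dapl1 are 8 genes tied to the quiescent state of T cells and to their exit from tissue. They were chosen by symbol, and all 8 were found among the 27998 genes of the count matrices. Their levels were described in 6 groups of cells picked by marker genes, here called gates: CD8 T, CD4 T, regulatory T (Treg), naive-like T, natural killer (NK) and dendritic cells (DC). The cells came from tumors of YUMMER1.7, an immunogenic BRAF-mutant mouse melanoma line. Tumors were implanted under the skin of male C57BL/6 mice aged 8 weeks and collected after 11 days. The hosts were wild type (WT) in 1 group and Siah2-/- in the other, Siah2 being a RING finger ubiquitin ligase. The tumor line was the same in both groups, so that the label describes the host. CD45+ cells, the leukocytes, were sorted and a smaller number of CD45- cells was added back.

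Each genotype was represented by 1 droplet library, with 4512 WT cells and 5563 cells of the Siah2-/- labelled library. Host genotype, tumor, cell suspension and library cannot be told apart in this design. Counts are of unique molecular identifiers (UMIs), which mark single transcripts. Siah2 itself was counted in both libraries, at 8.60 and 4.77 CPM in CD8 T cells and at 10.2 and 8.55 CPM over all kept cells, where CPM is the number of UMIs of a gene per 1000000 UMIs of the cells in question. The sources used here do not say which part of the gene the strain lacks, so this 3′ tag does not check the labels. Median depth per kept cell was 11439.5 UMIs for WT against 8700 for the Siah2-/- labelled library, and the lowest kept cell had 6670 and 4896. The libraries shared 34 cell barcodes. There is no replicate, so no test across samples was possible. All intervals in parentheses are exact 95% intervals for counting error alone. Immediate early genes, which respond to stimulation within minutes and also to tissue dissociation, were higher in the Siah2-/- labelled library and cycling genes were lower, and their values stand beside the results below.

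As background, KLF2 is a zinc finger transcription factor that keeps resting T cells quiescent and switches on S1PR1, the receptor for sphingosine 1-phosphate that draws T cells out of lymphoid organs and tissues into blood or lymph. Naive T cells use CCR7 to home to lymph nodes, and activated dendritic cells use the same receptor to carry antigen there. IL7R is the receptor chain through which interleukin 7 keeps resting T cells alive. TCF7 and LEF1 are partner transcription factors of Wnt signaling that maintain naive, memory and precursor T cells, SATB1 is a chromatin organizer of developing and naive T cells, and DAPL1 is a small protein whose transcript marks naive and early memory CD8 T cells.

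The genes lie at these places in GRCm38, as given by GENCODE. Klf2 is on chromosome 8 from 72319033 to 72321656 (plus strand), and Dapl1 is on chromosome 2 from 59484653 to 59505020 (plus strand). S1pr1 and Lef1 are both on chromosome 3, at 115710433 to 115715072 (minus strand) and 131110471 to 131224356 (plus strand). Ccr7 and Tcf7 are both on chromosome 11, at 99144196 to 99155077 and 52252371 to 52283014 (both minus strand). Il7r is on chromosome 15 from 9505788 to 9530176 (minus strand), and Satb1 is on chromosome 17 from 51736187 to 51833290 (minus strand). Klf2, S1pr1, Ccr7, Il7r and Dapl1 overlapped no other annotated gene. Tcf7, Lef1 and Satb1 overlapped noncoding or unclassified transcripts, of which Gm26551 (25 and 58 UMIs over all kept cells) and Gm43352 (41 and 98 UMIs) were the most counted.

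The upstream sequences of Klf2 and Dapl1 are shown because these genes differed in opposite directions between the libraries in the kept CD8 T cells. Each line holds the 250 bases before the transcription start in RefSeq (GRCm38.p6), at chr8:72318812-72319061 for Klf2 and chr2:59484403-59484652 for Dapl1, both on the plus strand and written 5′ to 3′. Capitals mark matches to any of 6 motifs on either strand.
Klf2: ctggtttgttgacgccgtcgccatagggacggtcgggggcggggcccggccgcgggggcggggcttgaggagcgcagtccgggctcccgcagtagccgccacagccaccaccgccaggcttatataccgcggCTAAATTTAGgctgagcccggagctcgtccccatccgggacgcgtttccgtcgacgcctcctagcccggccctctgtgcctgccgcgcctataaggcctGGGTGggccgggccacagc
Dapl1: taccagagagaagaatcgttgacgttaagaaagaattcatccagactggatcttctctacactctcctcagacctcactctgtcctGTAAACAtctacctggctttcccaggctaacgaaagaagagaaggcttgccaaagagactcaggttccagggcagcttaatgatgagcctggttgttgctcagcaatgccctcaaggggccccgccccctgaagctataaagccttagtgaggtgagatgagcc
The motifs were CTA and TAG with 4 bases of any kind between them, the type bound by MEF2 factors, CACCC, the box bound by KLF factors, CTTTGA (TCF and LEF), GTAAACA (FOXO), TGANTCA (AP-1) and TGACGTCA (cAMP response element). The printed matches do not overlap. Klf2 held the MEF2 type and, on the other strand, the KLF box, which 3.69% and 57.5% of all 32851 promoter windows of 300 bases held. Dapl1 held the FOXO type, found in 3.65% of the windows. A match is a description of the letters, and a missing match says nothing about a factor. Windows were found for 6 of the 8 genes. S1pr1 and Ccr7 had no entry in the set of promoter windows used here.

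The gates were checked against markers that their rules did not use. Ctla4, an inhibitory receptor of Treg, stood at 940 and 933 CPM in Treg and at 82.1 and 218 CPM in CD8 T cells. Gzma, a granzyme of NK and cytotoxic T cells, stood at 4960 and 8001 CPM in NK cells and at 712 and 1372 CPM in CD8 T cells. Cd209a, of conventional DC, stood at 166 and 399.7 CPM in DC and at 8.88 and 1.54 CPM in NK cells. The naive-like gate took CD3-positive cells by several marker conditions, among them no UMI of 7 activation and cycling markers. None of the 8 genes was used in it. Its cells still held the effector genes Ccl5, at 2315 and 2429 CPM, and Nkg7, at 2089 and 2308 CPM. Ccl5 in CD8 T cells was 1675 and 2496 CPM. Nkg7 there was 3481 and 3596 CPM. The 14 listed activation and effector genes, some of which the gate excludes, summed to 709 and 1326 CPM in naive-like T cells and to 6752 and 10262 CPM in CD8 T cells. With Ccl5 and Nkg7 present, the gate is called naive-like for its rule only. C1qa, a macrophage gene, stood at 546 CPM in its WT cells and at 106 CPM in its Siah2-/- labelled cells, against 1657 and 1364 CPM in empty droplets. Taken as a measure of free RNA, this and the other C1q genes gave 36.6% of the UMIs in the WT gate and 7.40% in the other.

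The number of kept cells differed widely between gates. There were 436 WT and 816 Siah2-/- labelled CD8 T cells, 17 and 253 CD4 T cells, 54 and 66 Treg, 18 and 134 naive-like T cells, 373 and 586 NK cells, and 100 and 111 DC. Resting T cells hold little RNA, and the lowest UMI count among kept cells was higher in WT. All barcodes with at least 1000 UMIs and at most 10% mitochondrial UMIs were therefore gated anew by the same rules. This wider set held 1066 and 1131 CD8 T cells, 266 and 610 CD4 T cells, 432 and 221 Treg, 224 and 352 naive-like T cells, 1029 and 1082 NK cells, and 132 and 115 DC. Values from the wider set are given beside those of the kept cells for most results below.

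**Figure D1:**
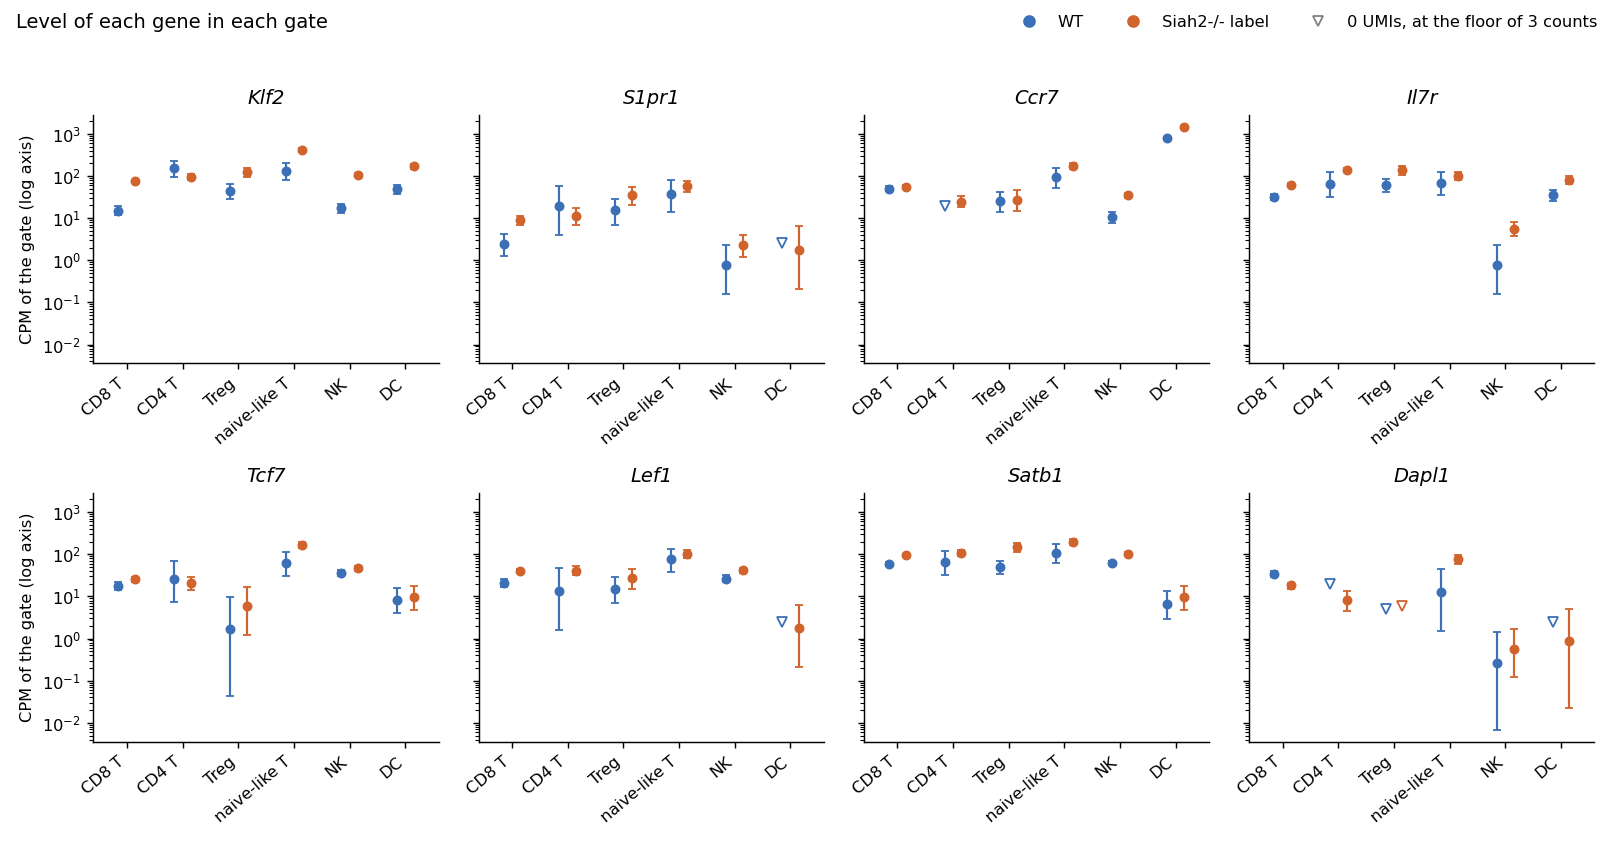
Level of each gene in the 6 gates of kept cells, as CPM on a log axis, with exact 95% Poisson intervals as bars and open triangles at the floor of 3 counts where no UMI was found. Ccr7 was highest in DC, at 777 CPM in WT and 1453 CPM in the Siah2-/- labelled library, and the other 7 genes had their highest level in that library in naive-like T cells or, for Il7r, in CD4 T cells.

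Klf2 was higher in the Siah2-/- labelled library in 5 of 6 gates of kept cells. In CD8 T cells it was 15.2 CPM (11.9 to 19.0) in WT and 74.8 CPM (69.0 to 81.0) in the Siah2-/- labelled library, a 4.94-fold higher level (3.87 to 6.37). In NK cells it was 17.2 CPM (13.3 to 21.9) and 106 CPM (97.4 to 115), which was 6.16-fold higher (4.76 to 8.07). DC held 48.1 and 168 CPM, 3.49-fold higher (2.59 to 4.78). In these 3 gates the intervals of the libraries lay far apart. Treg held 44.4 CPM (29.0 to 65.1) and 122 CPM (93.5 to 156), and naive-like T cells 132 CPM (81.6 to 201) and 405 CPM (364 to 450). CD4 T cells were the exception, with 152 CPM (96.2 to 228) in WT and 94.6 CPM (80.6 to 110) in the Siah2-/- labelled library. That WT value rests on 23 UMIs, of which 39.1% came from 1 cell.

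In the wider set Klf2 was higher in the Siah2-/- labelled library in all 6 gates, CD4 T cells included, and most of the differences were smaller. The log2 ratio was 1.38 (1.19 to 1.57) in CD8 T cells against 2.30 (1.95 to 2.67) in kept cells. It was 0.87 (0.49 to 1.27) in CD4 T cells, where the kept cells gave -0.68 (-1.32 to 0.01). It was 1.03 in Treg, 0.72 (0.53 to 0.90) in naive-like T cells, 2.07 (1.89 to 2.26) in NK cells and 1.89 in DC. In naive-like T cells the levels were 326 CPM in WT and 536 CPM in the Siah2-/- labelled library, so that the WT level was higher there than among the 18 kept cells.

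The order of the gates by Klf2 level also differed between libraries. Among kept WT cells CD4 T and naive-like T cells were highest, with overlapping intervals, followed by DC and Treg, which overlapped as well, and by NK and CD8 T cells, which overlapped at the bottom. In the Siah2-/- labelled library naive-like T cells stood alone at the top. DC, Treg, NK, CD4 T and CD8 T cells followed from 168 to 74.8 CPM, each overlapping its neighbor, CD4 and CD8 T cells only at the edges of their intervals.

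Klf2 was higher outside the lymphoid cells too. Macrophages held 58.7 CPM (55.5 to 62.1) in WT and 134 CPM (129 to 139) in the Siah2-/- labelled library, a log2 ratio of 1.19 (1.09 to 1.28). Those with a UMI of the monocyte gene Ly6c2 held 44.5 and 133 CPM, in 1372 and 1729 cells. Those without it differed less, at 96.3 and 140 CPM in 499 and 230 cells. Fibroblast-like CD45- cells, 616 in WT and only 80 in the Siah2-/- labelled library, held 53.5 and 152 CPM, a log2 ratio of 1.51 (1.32 to 1.70). Empty droplets, which are barcodes with under 100 UMIs and hold free RNA, had 125 and 254 CPM, a log2 ratio of 1.02 (0.89 to 1.15). After the free RNA was subtracted, the log2 ratio was 2.89 in CD8 T cells and 2.85 in NK cells. It was not subtracted in macrophages and fibroblast-like cells, and its part in their values was not tested. Without that subtraction, the difference in Klf2 was measured across lineages and was not particular to T cells.

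**Figure D2:**
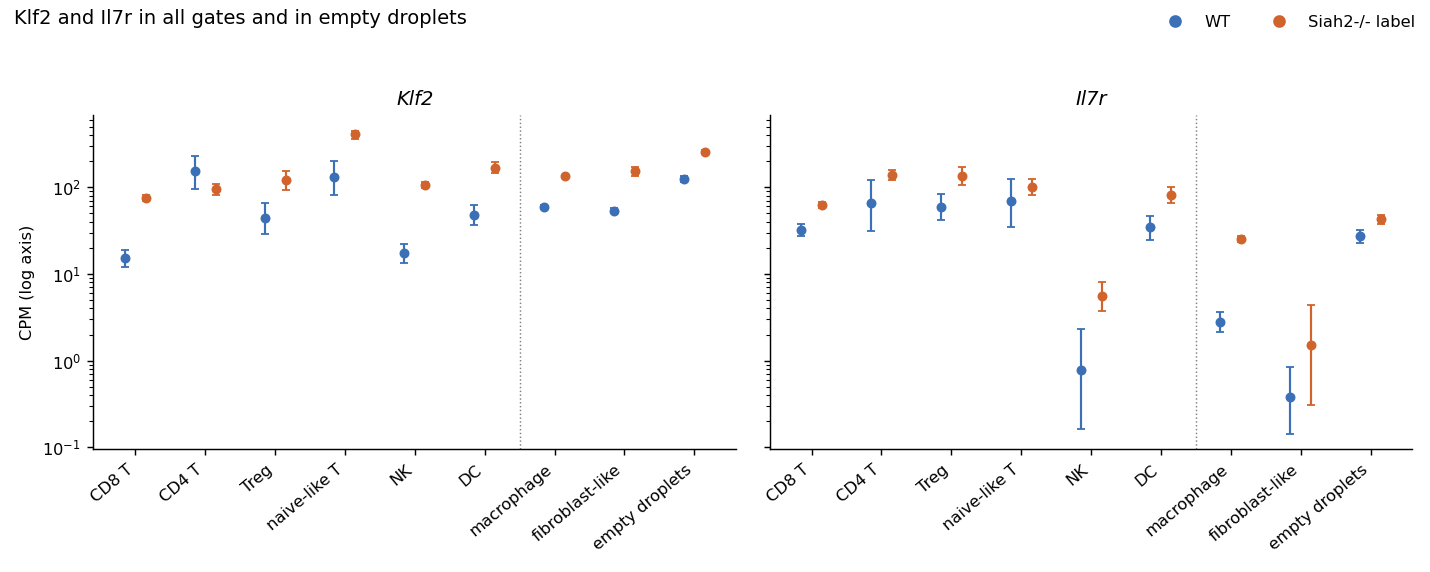
Klf2 and Il7r as CPM on a log axis in the 6 gates and, right of the dotted line, in macrophages, fibroblast-like cells and empty droplets, with exact 95% Poisson intervals. Klf2 was higher in the Siah2-/- labelled library in 5 of the 6 gates and in all 3 other groups, and Il7r in macrophages was 2.80 CPM in WT and 25.4 CPM in the Siah2-/- labelled library.

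Immediate early genes were higher in the Siah2-/- labelled library in every gate of kept cells, also in CD4 T cells, where Klf2 was not higher. Their part in the result was not tested. Fos was 75.3 and 288 CPM in CD8 T cells, 108 and 332 CPM in NK cells and 732 and 1879 CPM in DC. Of 13 listed immediate early genes, 7 were higher by 2-fold or more in CD8 T cells, 7 in NK cells and 8 in DC, where 5.99%, 6.37% and 6.68% of all genes were, and none was lower by that much. Their median log2 ratio was 1.24, 1.34 and 1.13. In CD4 T cells 5 of 13 were higher by 2-fold or more, in Treg 4 of 12 and in naive-like T cells 3 of 11. The shares of all genes there were 9.40%, 8.02% and 12.2%, and the medians of the listed genes 0.94, 0.75 and 0.75. The Klf2 ratio was computed again in cells with no UMI of Fos, Fosb and Egr1. It was then 1.54 in CD8 T cells (204 WT and 144 Siah2-/- labelled cells) and 2.51 in NK cells (181 and 104 cells). In Treg it was -0.96 (-3.42 to 0.93), with 22 and 15 cells left, in CD4 T cells -1.64 (-2.67 to -0.58), with 7 and 39 cells, and in naive-like T cells 0.43 (-0.47 to 1.41), with 7 and 24. DC kept 19 and 6 cells with 1 and 5 Klf2 UMIs, under the filter of 10 UMIs, so that the DC difference could not be read there.

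S1pr1, a target of KLF2 and the receptor that guides exit, was rarely detected. In CD8 T cells it was 2.46 CPM (1.27 to 4.29) from 12 UMIs in WT and 8.92 CPM (6.99 to 11.2) from 73 UMIs in the Siah2-/- labelled library, which is 3.63-fold higher (1.96 to 7.35). In the wider set the levels were 9.92 and 14.6 CPM, with a log2 ratio of 0.56 (0.14 to 0.98) in place of 1.86, so that the size of this difference depended on which cells were kept. Naive-like T cells had the highest point value in both libraries, 37.6 CPM (13.8 to 81.9) and 57.0 CPM (42.2 to 75.4). These intervals overlapped each other, those of CD4 T cells and Treg in WT, and that of Treg in the Siah2-/- labelled library. Their wider set gave 70.7 and 76.2 CPM, a log2 ratio of 0.11 (-0.32 to 0.54).

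Among Treg, S1pr1 was 15.4 and 34.8 CPM, with a log2 ratio of 1.18 (-0.05 to 2.51). In the wider set it was 0.69 (-0.03 to 1.40), so no difference was resolved at this depth. CD4 T cells had 3 and 20 UMIs, with a log2 ratio of -0.78 (-2.53 to 1.61). NK cells had 3 and 12 UMIs, a log2 ratio of 1.56 (-0.33 to 4.03). DC had 0 and 2 UMIs, too few for a ratio.

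Of 10 other genes of the sphingosine phosphate axis, which covers the related receptors, the kinases that make the lipid and the enzymes that break it down, 6 had 10 UMIs or more in CD8 T cells and 7 in NK cells. None of these was higher or lower by 2-fold or more in either gate, nor were the 5 counted in Treg. In CD4 T cells 1 of 6 was higher and 1 lower (9.40% and 11.3% of all genes). In naive-like T cells 1 of 5 was higher and 1 lower (12.2% and 9.40%). In DC 2 of 7 were higher (6.68%), the receptor gene S1pr2 and the kinase gene Sphk1. Those in CD4 T cells and DC lay within counting error. The median log2 ratio of the counted axis genes was 0.30 in CD8 T and 0.23 in NK cells. Genes of tissue retention behaved as follows. Of 10 listed, Rgs1, a brake on chemokine receptor signaling, was the only one past 2-fold in CD8 T cells, at 446 and 958 CPM. Past 2-fold on the higher side were also 4 of 9 in NK cells (6.37% of all genes), with the integrin gene Itgae and the chemokine receptor gene Cxcr6 among them, 4 of 8 in Treg (8.02%), 3 of 9 in CD4 T (9.40%), 0 of 6 in naive-like T cells (12.2%) and 2 of 7 in DC (6.68%). Only Itgae in CD4 T cells was past it on the lower side. Cd69, which binds S1PR1 and pulls it off the surface, was 139 and 251 CPM in CD8 T cells. S1pr1 and Cd69 were thus both higher in the Siah2-/- labelled CD8 T cells.

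Ccr7 was a gene of mature DC in these tumors. Mature DC, cut from the DC gate by Fscn1, Ccl22 and Cacnb3 with no use of Ccr7, held 3457 CPM in WT (25 cells) and 5028 CPM in the Siah2-/- labelled library (37 cells), a log2 ratio of 0.54 (0.42 to 0.66). The other DC held 8.69 and 28.3 CPM, where 62.5% of the WT UMIs and 87.0% of the other UMIs came from 1 cell each. Over all DC the log2 ratio was 0.90 (0.79 to 1.02), larger than within mature DC, and mature cells made up 25 of 100 and 37 of 111 DC. Of 8 genes listed for mature DC, none was higher or lower by 2-fold or more in DC, and their median log2 ratio was 0.46.

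Among T cells, Ccr7 had its highest point value in naive-like cells, at 94.1 CPM (52.7 to 155) from 15 UMIs and 173 CPM (147 to 204), and in WT this interval overlapped that of CD8 T cells. CD8 T cells held 50.4 CPM (44.3 to 57.1) and 55.4 CPM (50.4 to 60.7), a log2 ratio of 0.14 (-0.09 to 0.37), within counting error. Treg held 25.6 and 27.0 CPM, also within counting error. CD4 T cells had 0 UMIs in WT (0 to 24.3 CPM) and 24.8 CPM (17.9 to 33.4) in the Siah2-/- labelled library, and these intervals overlapped. Their wider set gave 14.2 and 33.8 CPM. NK cells held 10.4 and 34.7 CPM, but 70.0% of the WT UMIs came from 1 cell. The log2 ratio was 1.73 (1.23 to 2.27), 3.0 (2.15 to 3.99) without the top cell of each library, and 0.14 (-2.04 to 2.04) in cells with no UMI of Fos, Fosb and Egr1, from 8 and 4 UMIs. Only 1.61% and 3.41% of the cells had a UMI after each cell was thinned to 4000 UMIs. Genes listed for mature DC were higher in the same NK cells, 5 of 8 by 2-fold or more against 6.37% of all genes. Among these were Fscn1, at 9.14 and 38.0 CPM, and Ccl5, named above as an effector gene. The part of the listed genes in the Ccr7 value was not tested. Ligands of the receptor, Ccl19 and Ccl21a, had fewer than 10 UMIs in every gate.

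Il7r was higher in the Siah2-/- labelled library in every gate of kept cells, and beyond counting error in 5 of 6. CD8 T cells held 32.3 CPM (27.5 to 37.8) and 62.1 CPM (56.8 to 67.7), 1.92-fold (1.60 to 2.31). Treg held 59.8 CPM (41.7 to 83.2) and 135 CPM (105 to 171), and CD4 T cells 66.0 CPM (31.6 to 121) and 139 CPM (122 to 158). Naive-like T cells held 69.0 and 101 CPM, with overlapping intervals. In the Siah2-/- labelled library CD4 T cells and Treg thus stood above naive-like T cells in Il7r, with overlapping intervals.

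In the wider set the Il7r difference was much smaller in the CD4 lineage. There it was 166 and 189 CPM in CD4 T cells, a log2 ratio of 0.19 (-0.07 to 0.45) in place of 1.07, and 185 and 233 CPM in Treg, 0.33 (0.09 to 0.58) in place of 1.18. CD8 T cells kept most of it, at 0.73 (0.55 to 0.92) in place of 0.94. DC held 34.6 and 81.0 CPM, a log2 ratio of 1.23 (0.68 to 1.79). In cells with no UMI of Fos, Fosb and Egr1 it was -0.39 (-2.82 to 1.43) in DC, from 15 and 3 UMIs, and 0.042 (-1.39 to 1.35) in Treg, from 16 and 8. Within mature DC it was 98.5 and 195 CPM. The wider set gave mature DC 132 and 192 CPM, a log2 ratio of 0.54 (-0.04 to 1.12), within counting error. NK cells held 3 and 29 UMIs, 0.783 and 5.59 CPM, levels far under those of T cells.

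Il7r showed its largest difference in macrophages. It was 2.80 CPM (2.14 to 3.60) in 1871 WT and 25.4 CPM (23.2 to 27.6) in 1959 Siah2-/- labelled macrophages, 9.06-fold higher (6.93 to 12). After thinning to 4000 UMIs, 0.855% and 7.86% of macrophages had a UMI. In macrophages with no CD3 UMI the levels were 3.0 and 28.1 CPM, as large a difference, and in the wider set the log2 ratio was 3.25 (2.88 to 3.63). Empty droplets held 27.2 and 42.6 CPM. Macrophages with a UMI of Ly6c2, a monocyte gene, held 3.28 and 24.8 CPM, and those without it 1.53 and 29.3 CPM.

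Among 14 genes of interleukin 7 and common gamma chain signaling, 13 had 10 UMIs or more in CD8 T cells and 1 was higher by 2-fold or more, Socs3, a feedback inhibitor of cytokine signaling. In CD4 T cells 3 of 13 were, in NK cells 1 and in DC 2, where 9.40%, 6.37% and 6.68% of all genes were. In Treg 6 of 13 were, against 8.02% of all genes, among them Bcl2, a survival factor downstream of the receptor, at 5.13 and 25.1 CPM. In naive-like T cells 0 of 13 were. None was lower by that much in these gates. The WT value of Bcl2 in Treg lay at the floor of 3 counts. The gene passed the filter there only through the library where it was high.

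The transcription factors Tcf7, Lef1 and Satb1 differed by less than 2-fold in CD8 T cells. In CD8 T cells Tcf7 was 17.8 CPM (14.3 to 22.0) and 25.4 CPM (22.1 to 29.1), 1.43-fold (1.11 to 1.86). Lef1 was 20.9 CPM (17.0 to 25.4) and 39.6 CPM (35.4 to 44.2), 1.90-fold (1.51 to 2.39). Satb1 was 58.8 CPM (52.2 to 66.0) and 96.3 CPM (89.7 to 103), 1.64-fold (1.43 to 1.88). All of these were higher in the Siah2-/- labelled library beyond counting error. The same held in the wider set, with log2 ratios of 0.33 (0.08 to 0.58), 0.52 (0.29 to 0.76) and 0.59 (0.44 to 0.75).

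NK cells held all of these factors. Tcf7, which NK cells need in their development, was 36.0 CPM (30.3 to 42.6) and 46.9 CPM (41.2 to 53.1), above the CD8 T level in both libraries. Lef1 was 26.4 and 42.0 CPM, 1.59-fold (1.25 to 2.04). Satb1 was 62.1 and 102 CPM, 1.64-fold (1.40 to 1.91). The share of NK cells with a Tcf7 UMI was 15.0% and 15.4% after thinning to 4000 UMIs and 6.97% and 9.04% after thinning to 2000 UMIs.

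Naive-like T cells had the highest Tcf7, Lef1 and Satb1 in both libraries by point value. In WT their intervals overlapped those of CD4 T cells for each gene, of NK cells for Tcf7, and of CD8 T, NK and Treg for Satb1. In the Siah2-/- labelled library the Satb1 interval of Treg overlapped theirs. Tcf7 was 62.7 CPM (30.1 to 115) and 164 CPM (138 to 194), 2.62-fold (1.38 to 5.57). In the wider set it was 127 and 196 CPM, a log2 ratio of 0.63 (0.33 to 0.93) in place of 1.39. Lef1 was 75.3 and 101 CPM with overlapping intervals, and in the wider set 120 and 118 CPM. Satb1 was 107 and 193 CPM, and 158 and 199 CPM in the wider set. Lef1 in the wider set thus did not differ beyond counting error, and Tcf7 and Satb1 differed by less than in kept cells.

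Treg were low in Tcf7, with 1 and 3 UMIs. Satb1 in Treg was 49.6 CPM (33.2 to 71.2) and 145 CPM (114 to 182), 2.92-fold (1.88 to 4.66), and the wider set gave 92.2 and 178 CPM, a log2 ratio of 0.95 (0.63 to 1.26). Foxp3 was higher in the same Treg cells, with a log2 ratio of 0.92, and 8 of 10 cycling genes were lower by 2-fold or more, against 9.41% of all genes. Their part in the Satb1 value was not tested. In CD4 T cells the WT counts were 4, 2 and 10 UMIs for Tcf7, Lef1 and Satb1. The wider set resolved a difference for Satb1 alone, at 75.2 and 128 CPM, a log2 ratio of 0.76 (0.40 to 1.14). DC held at most 11 UMIs of any of these factors in either library. As a reference for free RNA, thinned macrophages, with median depths of 10235 and 9382 UMIs before thinning, had a Tcf7 UMI in 0.267% and 0.408% of cells, and a Lef1 UMI in 0.160% and 0.408%.

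Dapl1 went the other way in CD8 T cells. It was 34.6 CPM (29.6 to 40.2) in WT and 18.2 CPM (15.4 to 21.4) in the Siah2-/- labelled library, 1.90-fold lower. The wider set gave 40.1 and 20.1 CPM, a log2 ratio of -0.99 (-1.26 to -0.73). The UMIs came from few cells, with 5.28% (3.37 to 7.81) and 2.94% (1.89 to 4.34) of thinned CD8 T cells holding any. These intervals overlapped, while those of the level did not. In cells with no UMI of Fos, Fosb and Egr1 the direction turned, with 31.0 CPM in 204 WT cells and 49.8 CPM in the 144 cells of the other library, 0.68 (0.16 to 1.21) on the log2 scale. The lower Dapl1 level thus did not hold in every set of CD8 T cells. Among kept cells the difference was largest in CD8 T cells that were not cycling and had fewer than 3 UMIs of Pdcd1, Havcr2 and Lag3, the genes of the checkpoint receptors PD-1, TIM-3 and LAG-3. There Dapl1 was 103 CPM in 40 WT cells and 21.1 CPM in 175 Siah2-/- labelled cells, 4.86-fold lower, with 37.1% and 42.3% of the UMIs in 1 cell. The wider set had 366 and 388 such cells and gave 74.3 and 30.4 CPM, a log2 ratio of -1.29 (-1.75 to -0.84), and noncycling cells with at least 3 checkpoint UMIs gave nearly the same there, -1.31 (-1.92 to -0.71).

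In naive-like T cells Dapl1 was 12.5 CPM from 2 UMIs in WT and 76.8 CPM from 66 UMIs in the Siah2-/- labelled library, a log2 ratio of 2.61 (0.70 to 5.69). The wider set, with 96 and 128 UMIs, turned the direction, at 94.3 and 73.9 CPM and a log2 ratio of -0.35 (-0.74 to 0.05). The value of the kept cells thus rested on 18 WT cells. Treg had no Dapl1 UMI in either library, which allows up to 6.30 CPM in WT and 7.13 CPM in the Siah2-/- labelled library. NK cells had 1 and 3 UMIs and DC 0 and 1.

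**Figure D3:**
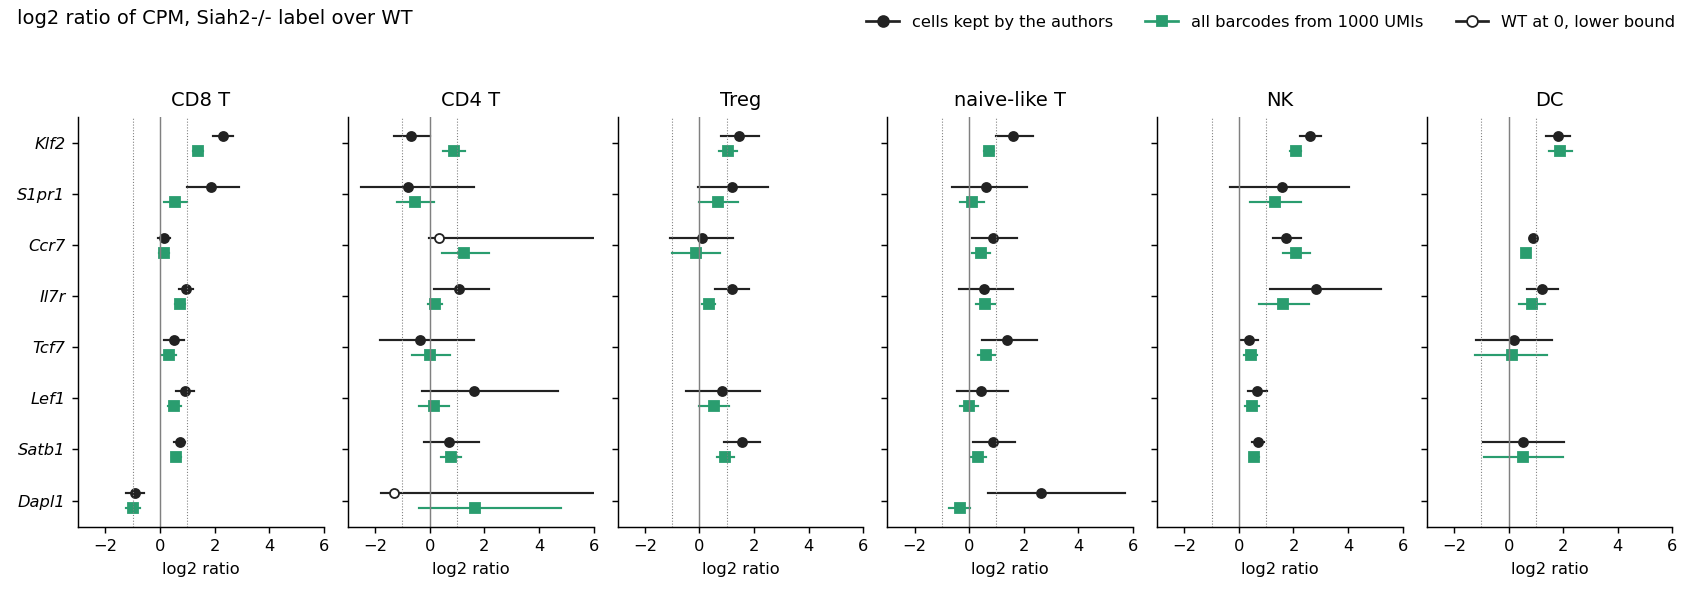
log2 ratio of CPM in the Siah2-/- labelled library over WT for each gene and gate, for the kept cells (black circles) and all barcodes with at least 1000 UMIs (green squares), with exact 95% intervals, dotted lines at 2-fold and open circles for lower bounds. Klf2 lay right of 0 in all gates of the wider set, from 0.72 in naive-like T cells to 2.07 in NK cells, and Dapl1 in CD8 T cells lay at -0.93 and -0.99.

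Counted by gate, the 8 genes were read against all genes with at least 10 UMIs over both libraries. In CD8 T cells all 8 passed this filter and 2 were higher by 2-fold or more, Klf2 and S1pr1, where 5.99% of all genes were. In NK cells 4 of 7 were, Klf2, S1pr1, Ccr7 and Il7r, against 6.37%. In Treg 4 of 6 were, Klf2, S1pr1, Il7r and Satb1, against 8.02%. In naive-like T cells 3 of 8 were, Klf2, Tcf7 and Dapl1, against 12.2%. In DC 2 of 5 were, Klf2 and Il7r, against 6.68%. In CD4 T cells 2 of 8 were, Il7r and Lef1, against 9.40%. No member was lower by 2-fold or more in any gate, where the share of all genes was 3.12% in CD8 T, 11.3% in CD4 T, 9.41% in Treg, 9.40% in naive-like T, 2.01% in NK cells and 6.11% in DC. The filter takes both libraries together. S1pr1 and Il7r in NK cells, Lef1 in CD4 T cells and Dapl1 in naive-like T cells had at most 3 WT UMIs and passed it only through the library where they were high. The intervals of S1pr1 in NK cells and Treg and of Lef1 in CD4 T cells included 0. These counts are a description, and no conclusion on the members as a group rests on them.

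The median log2 ratio over the members that passed was 0.82 in CD8 T, -0.01 in CD4 T, 1.18 in Treg, 0.87 in naive-like T, 1.56 in NK cells and 0.90 in DC, where the median over all genes lay between -0.17 and 0.08. The CD4 T value counts Ccr7 and Dapl1, with 0 WT UMIs, at their bounds. The NK value is that of S1pr1, from 3 and 12 UMIs, and the Treg value is that of S1pr1 and Il7r, so both rest on a member whose interval includes 0. The medians of the wider set were 0.54, 0.48, 0.61, 0.38, 1.31 and 0.65 in the same order, and in cells with no UMI of Fos, Fosb and Egr1 that of Treg was 0.042 over 3 members. In the wider set the counts past 2-fold were 1 in CD8 T, 2 in CD4 T, 1 in Treg, 0 in naive-like T, 4 in NK cells and 1 in DC, and the shares of all genes were 4.75%, 7.25%, 4.54%, 7.19%, 5.84% and 6.09%. Of the T cell gates, only CD8 T and Treg still held Klf2 past 2-fold there, and CD4 T cells held Ccr7 and Dapl1, the latter from 2 and 19 UMIs. NK and CD4 T cells had the same count in both sets, the NK cells with the same 4 genes and the CD4 T cells with others.

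CD8 T cells were divided further, since the libraries held different shares of cycling cells. Of the kept CD8 T cells, 258 of 436 in WT and 264 of 816 in the Siah2-/- labelled library had a UMI of Mki67 or Top2a. All 10 listed cycling genes were lower in that library beyond counting error in CD8 T cells, with a median log2 ratio of -0.92. By 2-fold or more, 3 of them were lower in CD8 T cells (3.12% of all genes), 9 of 10 in CD4 T cells (11.3%) and 2 of 10 in NK cells (2.01%). In DC 8 of 10 were (6.11%), and in naive-like T cells 3 of 4 (9.40%). Within cycling cells Klf2 was 13.1 and 62.0 CPM. In noncycling cells with at least 3 checkpoint UMIs it was 13.6 and 60.3 CPM, and in noncycling cells with fewer it was 41.0 and 152 CPM. The Klf2 log2 ratios in these subsets were 2.25, 2.15 and 1.89. Over the wider set they were 2.11 (1.71 to 2.53), 1.96 (1.45 to 2.51) and 0.87 (0.63 to 1.12), so that the last, at 122 and 224 CPM in 366 and 388 cells, was under 2-fold and well below the others.

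Tcf7 depended on the subset. It was 12.7 and 19.9 CPM in cycling cells, 12.8 and 9.59 CPM in noncycling cells with checkpoint UMIs, and 85.0 and 84.5 CPM in those with few, a log2 ratio of -0.01 (-0.62 to 0.64). Il7r was higher in the Siah2-/- labelled library in all 3 subsets, with log2 ratios of 0.64, 0.89 and 0.76, as was Lef1, with 0.73, 0.84 and 1.05. Ccr7 in noncycling cells with checkpoint UMIs was 95.3 and 66.5 CPM, a log2 ratio of -0.52 (-0.85 to -0.18). The wider set put that value at -0.12 (-0.42 to 0.18), within counting error, and Tcf7 was 0.23 (-0.25 to 0.71), 0.11 (-0.63 to 0.86) and 0.44 (0.12 to 0.77) in the subsets, beyond counting error only in cells with few checkpoint UMIs.

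**Figure D4:**
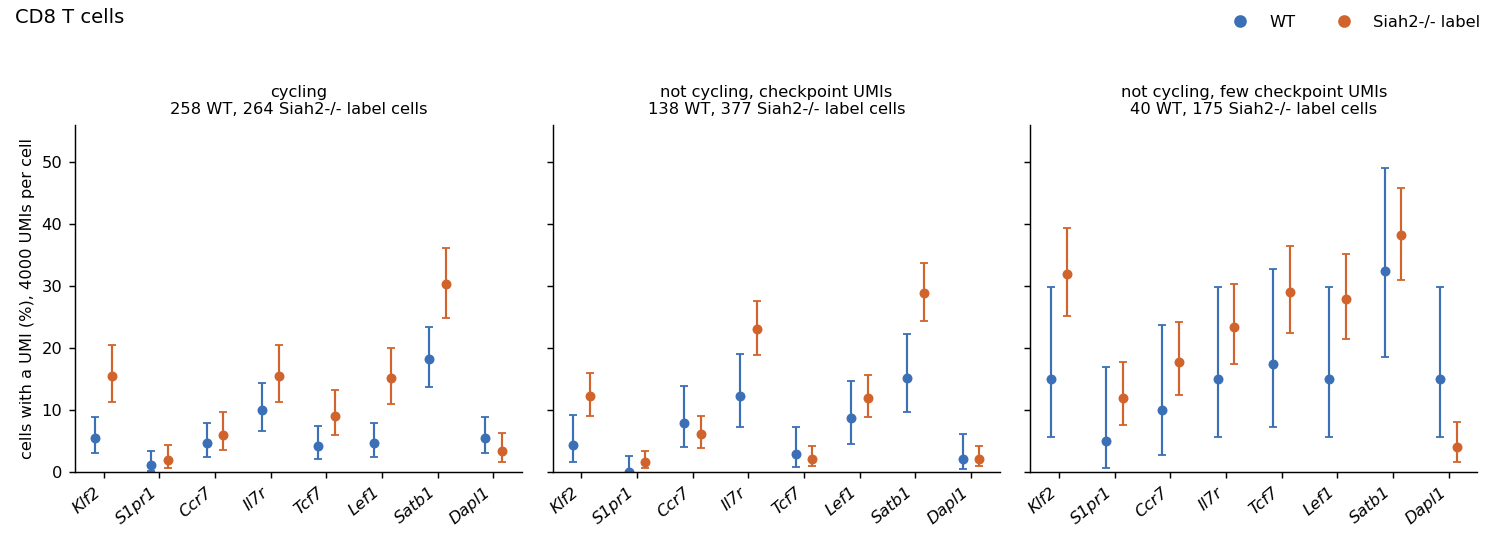
Share of CD8 T cells with a UMI of each gene after every cell was thinned to 4000 UMIs, in cycling cells, noncycling cells with at least 3 checkpoint UMIs and noncycling cells with fewer, with exact 95% binomial intervals. Klf2 was found in 5.43% of WT and 15.5% of Siah2-/- labelled cycling cells, and Dapl1 in 15.0% and 4.0% of the noncycling cells with few checkpoint UMIs.

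Some of the genes were found together in the same cells, and others were not. Among thinned CD8 T cells of the Siah2-/- labelled library, S1pr1 was found in 11.2% (6.53 to 17.5) of 143 cells with a Klf2 UMI and in 2.38% (1.36 to 3.83) of 673 cells without one. Tcf7 was found in 21.0% and 7.88% of the same cells, Ccr7 in 18.9% and 6.39%, and Lef1 in 28.7% and 13.8%. In WT only 26 CD8 T cells had a Klf2 UMI, and 0 of them (0 to 13.2) had S1pr1, against 1.22% of 410 without, so the pairing was not seen there at this depth. Dapl1 was most tied to Ccr7. In WT, Ccr7 was found in 52.2% (30.6 to 73.2) of 23 CD8 T cells with a Dapl1 UMI and in 3.63% (2.05 to 5.92) of 413 without, and in the Siah2-/- labelled library in 58.3% and 7.07%. In naive-like T cells of that library, 87.5% (67.6 to 97.3) of 24 cells with an S1pr1 UMI also had Klf2, against 46.4% of 110 without. Not every pair was of this kind. In DC of the Siah2-/- labelled library, Ccr7 was found in 10.7% (2.27 to 28.2) of 28 cells with a Klf2 UMI and in 41.0% (30.3 to 52.3) of 83 without. In its Treg, Klf2 was found in 14.8% of 27 cells with a Satb1 UMI and in 38.5% of 39 without, with overlapping intervals. In its CD8 T cells, Il7r was found in 18.1% of cells with a Tcf7 UMI and in 21.0% without, again with overlapping intervals. These shares are a description of cells from 1 library each.

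The number of the 8 genes found in 1 cell also differed. After thinning, UMIs of 3 or more of them were held by 4.36% (2.64 to 6.72) of the WT CD8 T cells and 12% (9.86 to 14.4) of those labelled Siah2-/-. The shares were 1.34% (0.437 to 3.10) and 5.97% (4.2 to 8.21) in NK cells. Intervals overlapped in the other gates, with 1.85% (0.0469 to 9.89) and 18.2% (9.76 to 29.6) in Treg, 2.0% (0.243 to 7.04) and 8.11% (3.77 to 14.8) in DC, and 22.2% (6.41 to 47.6) and 48.5% (39.8 to 57.3) in naive-like T cells. In macrophages they were 0% and 0.306%. WT CD4 T cells had 0 of 17 (0 to 19.5), and the Siah2-/- labelled ones 12.6% (8.81 to 17.4).

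Other genes of the naive and quiescent state were read from a list of 20. In CD8 T cells 5 were higher by 2-fold or more and none was lower, where 5.99% and 3.12% of all genes were. They were Btg1 and Btg2, antiproliferative genes, at 284 and 660 CPM and at 190 and 458 CPM, Tsc22d3, the glucocorticoid-induced GILZ, at 47.9 and 142 CPM, Klf3, a KLF repressor, and Itgb7, an integrin chain. NK cells had 3 of 19 past 2-fold on the higher side, Klf3, Tob1 and Tsc22d3, against 6.37% of all genes. The median log2 ratio of the list was 0.40 in CD8 T, 0.48 in NK cells and 0.36 in naive-like T cells. Of 14 activation and effector genes, Nr4a1 was past 2-fold on the higher side in CD8 T cells and Tox, a factor of exhausted T cells, on the lower side, with a median of 0.37. In CD8 T cells that was 1 of 14 on each side, near the shares of all genes, 5.99% and 3.12%. On the higher side were also 5 of 14 in CD4 T (9.40% of all genes), 2 of 14 in Treg (8.02%) and 2 of 7 in naive-like T cells (12.2%). In NK cells 2 of 14 were (6.37%) and in DC 4 of 11 (6.68%). On the lower side was 1 each in Treg (9.41%) and DC (6.11%).

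For each member, the genes with the most similar profile were sought over 9 groups of cells in each library, which gives 18 profiles that share 2 libraries, among 11775 genes with at least 100 UMIs. Likeness was Pearson's r of log2(CPM + 10). Klf2 was most like Cmpk2, Ddx3y and Tsc22d3, with r of 0.75, 0.75 and 0.74, lower than for any other member. S1pr1 was most like Smad7, Tbcel and Unc5cl (0.89, 0.89 and 0.88), and Ccr7 most like Arc, Il15ra and Vopp1 (0.93, 0.93 and 0.92). Il7r was most like Lmbr1l, Tap2 and Cyth1 (0.87, 0.87 and 0.86), and Tcf7 most like Rps27, A630072M18Rik and Rps19 (each 0.84). Lef1 was most like Fam189b, Dennd2d and Jak1 (0.97, 0.95 and 0.95), and Satb1 most like Prkcq, Ablim1 and Cd247 (0.94, 0.94 and 0.93). Dapl1 was most like Klra6, 2010300C02Rik and Fam71b (0.90, 0.90 and 0.89). Between members, r was highest for Lef1 and Satb1, at 0.91, and lowest for Klf2 and Ccr7, at -0.30.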

How the data were processed

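Single-cell libraries of CD45+ tumor cells, with CD45- cells added back, were deposited as unfiltered matrices of UMI counts. The authors made these with Cell Ranger and bcl2fastq (versions not given in the sources used here) on mm10/GRCm38. The authors also deposited raw counts of 14654 genes in 4524 and 5576 kept cells, equal to the matrices for all 8 members, and natural log values of normalized counts in 4512 and 5563 cells. Those last cells, with 64793053 and 59090284 UMIs, were analysed from the counts. The natural log values chose the cells and entered no result.

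Gates used UMIs of marker genes and no member. T cells needed at least 3 UMIs of Cd3d, Cd3e and Cd3g, at most 1 of Csf1r and Adgre1, at most 1 of Ncr1 and at most 2 of collagen genes and Dcn. Treg needed Foxp3 and at most 1 CD8 UMI. Naive-like T cells needed a UMI of 1 further marker, which is not reported here, and no UMI of Foxp3, Pdcd1, Havcr2, Lag3, Tnfrsf9, Il2ra, Mki67 and Top2a. CD8 T and CD4 T needed Cd8a or Cd8b1, or Cd4, without the other. Treg and then naive-like T took cells first. NK needed Ncr1 together with Klrb1c or Klre1, and at most 2 CD3 UMIs. DC needed Flt3 or Zbtb46, at least 20 UMIs of MHC class II genes at most 5 of C1q genes, at most 1 each of Adgre1 and Siglech, and none of Ncr1. Mature DC needed at least 5 UMIs of Fscn1, Ccl22 and Cacnb3. Macrophages needed at least 3 UMIs of Csf1r and Adgre1. Fibroblast-like cells needed at least 10 UMIs of collagen genes and Dcn and no UMI of Ptprc, the gene of CD45. These thresholds were set after marker distributions had been seen. Members, gene lists and tests were chosen with earlier results of these data known. No doublet was removed, and an alternative left out the 5% of cells with the most UMIs.

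UMIs were summed per gate and library and given as CPM with exact Poisson intervals. These 3′ counts were not scaled by length, so levels were compared between gates and libraries and not between genes. Ratios had the exact conditional binomial interval. With 1 library per genotype no test was run, and a member counted as higher or lower at 2-fold among genes with at least 10 UMIs. A gate at 0 UMIs was put at a floor of 3 counts. A 3-count floor and all intervals cover counting error only. Free RNA was estimated from genes of other lineages (C1qa, C1qb and C1qc, or Gzma and Gzmb in DC) relative to empty droplets. Named genes were all members in every gate, the listed genes past 2-fold or with most UMIs, and 3 genes most alike in profile. The scripts used Python 3.11.15, NumPy 2.4.6, SciPy 1.17.1 and pandas 2.3.3, and the ratio was tested on simulated data.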

Additional observations from a re-analysis of the deposited data

Results flagged for a closer look

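Dapl1 differed in direction between gates of kept cells. Its log2 ratio was 2.61 in naive-like T cells and -0.93 in CD8 T cells, each beyond counting error. The difference between the gates was not tested, and the first value came from 2 WT UMIs. Both values changed direction under an alternative set of cells.

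Members were also higher in cells outside the 6 gates. The log2 ratio of Il7r in macrophages was 3.18, and that of Klf2 was 1.19 in macrophages and 1.51 in fibroblast-like cells. Each lies above the WT level by 2-fold or more at the lower end of its interval.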

How the results depend on the processing

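Ratios and counts were recomputed under 11 alternatives. Of 456 ratios, 34 changed sign. In 1 of these the intervals excluded 0 on both sides, Dapl1 in CD8 T cells, at -0.93 for the kept cells and 0.68 in cells with no UMI of Fos, Fosb and Egr1. Of the ratios past 2-fold in kept cells, 5 changed sign. These were Dapl1 in naive-like T cells among all barcodes from 1000 UMIs (-0.35) and, in cells with no UMI of Fos, Fosb and Egr1, Dapl1 in naive-like T cells (-0.037), Il7r in DC (-0.39), Klf2 in Treg (-0.96) and S1pr1 in Treg (-0.28). The cause was not tested, and that alternative left 7 WT naive-like T cells and 6 Siah2-/- labelled DC.

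Counts of members higher by 2-fold or more moved as follows. In cells with no UMI of Fos, Fosb and Egr1, CD8 T had 4 in place of 2, Treg 1 and NK 1 in place of 4, naive-like T 0 in place of 3, and DC 0 in place of 2. Fewer members passed the filter there, 3 in place of 6 in Treg, 5 of 7 in NK, 6 of 8 in naive-like T and 2 of 5 in DC. Among all barcodes from 1000 UMIs, CD8 T and DC had 1, Treg 1 and naive-like T 0. With 2 UMIs of the defining marker, CD4 T had 0 and DC 1. Gates after thinning gave CD4 T 0. Free RNA subtraction gave CD4 T 1 and naive-like T 5. The same lowest UMI count in both libraries gave naive-like T 5, and leaving out the top cell of each gene gave it 7. Without cycling cells Treg had 2.

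Counts of members lower by 2-fold or more were 0 for the kept cells. With 2 UMIs of the defining marker they were 2 in CD4 T and 1 in Treg. Without cycling cells they were 1 in CD4 T and 1 in CD8 T, without immediate early cells 1 in CD4 T and 1 in naive-like T, with free RNA subtracted 1 in CD4 T, and without the 5% of cells with the most UMIs 1 in CD8 T. The other 107 of 132 recomputed counts stayed within 1.5 times. Shares thinned to 2000 or 4000 UMIs left the interval of the unthinned share in 120 of 192 cases. No paired analysis was possible because each group holds 1 library.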
